A study of Mus musculus with 6 samples.

Results

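The proteasome genes of this mouse tumor Treg series were taken as every gene whose symbol is Psm followed by a letter from a to g and a number, which selected 48 of the 23420 genes in the counts table. They comprised 16 core genes (8 alpha, 8 beta), 17 genes of the regulatory cap (6 ATPases, 11 non-ATPases), 5 immunoproteasome genes, 3 cap assembly chaperones, 4 core assembly chaperones and 3 other activators or inhibitors. Of the 48, 46 had enough counts to be tested. The 2 others, Psma8, an alpha subunit of the testis, and Psmb11, the catalytic subunit of the thymus, had no count in any library. With 3 counts per library taken as the floor, a level of up to 0.449 to 0.629 CPM (counts scaled to 1000000 per library) could have been missed.

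The cells were regulatory T cells (Tregs), the T cells that restrain immune responses, sorted by GFP from BALB/c Foxp3-GFP mice bearing T11 tumors, a transplantable line that models claudin-low triple-negative breast cancer. The untreated group (libraries 1, 2 and 3) received no antibody according to the labels, which name no control antibody, and the anti-PD-1 group (libraries 4, 5 and 6) was given 200 µg of antibody J43 into the peritoneum 2 times a week. Both groups carried the same reporter allele, strain and tumor line, 10000 cells of which had been injected, and tumors were taken at 150 mm2. GFP marks cells by Foxp3 expression alone, the sort was above 90% pure, and neither age nor sex is given in the labels. RNA was counted per gene in 3 libraries per group. Whether the libraries within a group stem from different animals is not stated in the labels, so the spread behind each p-value may be technical.

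The proteasome is the main protease of the cytosol and nucleus. Its core is a barrel of outer alpha rings, which gate entry, and inner beta rings, in which Psmb5, Psmb6 and Psmb7 carry the chymotrypsin-like, caspase-like and trypsin-like sites. A cap of ATPases (Psmc genes) and non-ATPases (Psmd genes) recognises ubiquitin-tagged proteins, removes the tag and threads the unfolded chain into the barrel. In lymphocytes and in cells exposed to interferon-gamma, Psmb8, Psmb9 and Psmb10 take the places of Psmb5, Psmb6 and Psmb7, and Psme1 with Psme2 forms an alternative ring-shaped activator. This immunoproteasome is known for cutting peptides that suit MHC class I.

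Promoter sequences are shown for the exchange pairs Psmb8 with Psmb5 and Psmb9 with Psmb6, because the values below turn on these subunits. Each is the 250 bases before the transcription start, 5′ to 3′ on the gene's own strand, from RefSeq on GRCm38.p6 (the mm10 assembly), with motif matches in capitals.
Psmb8, chr17:34197945-34198194, plus strand: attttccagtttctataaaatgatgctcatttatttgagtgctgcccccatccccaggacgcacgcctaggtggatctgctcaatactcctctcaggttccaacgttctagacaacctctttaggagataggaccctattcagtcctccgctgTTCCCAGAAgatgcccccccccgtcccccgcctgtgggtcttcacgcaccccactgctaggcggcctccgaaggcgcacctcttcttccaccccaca
Psmb5, chr14:54617996-54618245, minus strand: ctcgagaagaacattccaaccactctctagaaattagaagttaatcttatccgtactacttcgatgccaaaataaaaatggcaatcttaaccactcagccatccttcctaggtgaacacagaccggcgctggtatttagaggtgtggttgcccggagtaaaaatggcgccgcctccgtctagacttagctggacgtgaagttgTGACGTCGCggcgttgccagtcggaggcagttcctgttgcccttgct
Psmb9, chr17:34187331-34187580, minus strand: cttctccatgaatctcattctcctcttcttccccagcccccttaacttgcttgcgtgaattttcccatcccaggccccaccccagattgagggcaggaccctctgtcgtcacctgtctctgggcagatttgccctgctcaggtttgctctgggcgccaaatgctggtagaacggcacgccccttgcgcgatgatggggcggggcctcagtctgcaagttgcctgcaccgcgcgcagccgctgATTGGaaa
Psmb6, chr11:70525107-70525356, plus strand: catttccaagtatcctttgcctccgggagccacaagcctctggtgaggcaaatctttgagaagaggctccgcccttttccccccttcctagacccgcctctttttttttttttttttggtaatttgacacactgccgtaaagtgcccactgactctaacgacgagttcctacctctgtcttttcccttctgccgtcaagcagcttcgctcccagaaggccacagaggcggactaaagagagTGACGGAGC

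In these windows 4 motifs were searched on both strands: the gamma-activated site of interferon-induced genes (TTCNNNGAA), the interferon regulatory factor element (GAAA, NN and GAAA without a gap), the core of the antioxidant response element bound by Nfe2l1 and Nfe2l2 (TGACNNNGC) and the CCAAT box. The capitals in Psmb8 are a gamma-activated site at -97 to -89 from the start, those in Psmb5 and Psmb6 are antioxidant response element cores at -47 to -39 and at -9 to -1, and those in Psmb9 are a reversed CCAAT box at -8 to -4. Each of these 4 windows held 1 match, so none overlapped another. The start of Tap1, a subunit of the transporter that carries peptides to MHC class I, lies 226 bases from that of Psmb9 on the other strand, so the window spans the whole stretch between them. Windows of the same length were found for 40 of the 48 genes, 39 of them within 100 bases of the start in the counts table. The gamma-activated site occurred in 2 of the 40 and in 7.02% of all 32851 windows, and the interferon regulatory factor element in 3 and in 2.98%. The antioxidant core occurred in 5 and in 10.2%, and the CCAAT box in 13 and in 33.8%. The windows of the other immunoproteasome genes, Psmb10, Psme1 and Psme2, held no match to any of the 4. These are matches of letters in a window and say nothing of binding.

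Library totals ran from 4766533 to 6686774 counts, and proteasome genes took 0.191% to 0.242% of them. Treg markers were abundant in every library (all 7 tested, summed level 6498 to 7240 CPM untreated and 5516 to 6262 CPM after anti-PD-1, with CPM scaled by TMM here and below). Other cells' markers summed to far less. Macrophage and monocyte markers summed to 16.7 to 28.5 and 15.1 to 36.9 CPM (3 of 10 tested, C1qa at 0), dendritic cell markers to 1.97 to 16.2 and 8.67 to 15.8 CPM (1 of 6, Clec9a and Cd209a at 0), and B cell markers to 3.21 to 10.8 and 4.96 to 19.1 CPM (2 of 5). CD8 T and NK cell markers summed to 17.01 to 32.4 and 19.2 to 54.8 CPM (2 of 4). Neutrophil markers summed to 0 and to at most 0.207 CPM (none of 3, S100a9 and Csf3r at 0). Tumor and stroma markers summed to 112 to 140.2 and 141 to 195 CPM (7 of 10, Krt8 at 0). The Treg sum was thus lower in every anti-PD-1 library than in any untreated one, but the genes in it were split. Of the Treg genes, 3 had a log2 fold change above 0 and 4 below. Ctla4 and Ikzf2 were lower in every anti-PD-1 library, while Foxp3 (mean 451 CPM untreated, 523 CPM after anti-PD-1) and Cd4 (423 and 478 CPM) were higher in every one. The tumor and stroma sum was higher in every anti-PD-1 library, by a narrow margin. Of its 7 tested genes, 5 had a log2 fold change above 0 and 2 below. Pecam1 alone among them had groups that did not overlap (64.7 to 73.9 CPM untreated, 83.8 to 123 CPM after anti-PD-1). The sums of the other cell types overlapped between the groups. The part of these cells in the results below was not tested, and in bulk samples fewer cells of a type and less RNA per cell cannot be told apart. Untreated library 1 stood apart from the others: the chi-square statistic of its counts against each other library was 24.4 to 32.3 per degree of freedom, against 9.87 to 15.6 for all pairs without it.

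The first comparison asked whether proteasome genes differed in tumor Tregs when anti-PD-1 had been given. No proteasome gene passed. In edgeR's quasi-likelihood test, 0 of 46 had a Benjamini-Hochberg adjusted p under 0.05, where 3 of all 10352 genes tested (0.029%) passed, all of them higher. The smallest adjusted p of the 46 was 0.551. At an unadjusted p under 0.05 in edgeR stood 1 proteasome gene with a higher value, the core subunit Psmb6, and 3 with lower values, the cap genes Psmd2, Psmc2 and Psmc6, which is 4 of 46 beside 8.3% of all genes (4.23% higher and 4.07% lower). DESeq2 also called none of the 28 proteasome genes to which it gave an adjusted p, while it called 34 of 4331 genes (0.785%), and limma-voom called none of 46. All 3 anti-PD-1 libraries lay below all 3 untreated libraries for 6 proteasome genes, Psma4, Psmc1, Psmc3, Psmc6, Psmd14 and Psme4, beside 6.44% of all genes, and above them for none, beside 7.18% of all genes.

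Log2 fold changes were below 0 for 30 of the 46 genes, beside 49.9% of all genes, and their median was -0.12 beside 0.00164 for all genes. The classes were not alike in this. All 6 cap ATPases lay below 0 with a median of -0.40, and 5 of 7 core alpha genes with a median of -0.21. Core beta genes (3 of 7 below 0, median 0.05) and cap non-ATPases (5 of 11, median 0.03) were balanced around 0. The 5 immunoproteasome genes had a median of -0.09 with 4 below 0. The median of all proteasome genes was -0.174 without untreated library 1 and -0.0441 without untreated library 3, and leaving out anti-PD-1 library 4 or 6 gave -0.0621 or -0.206. Differences between classes were not tested.

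**Figure D1:**
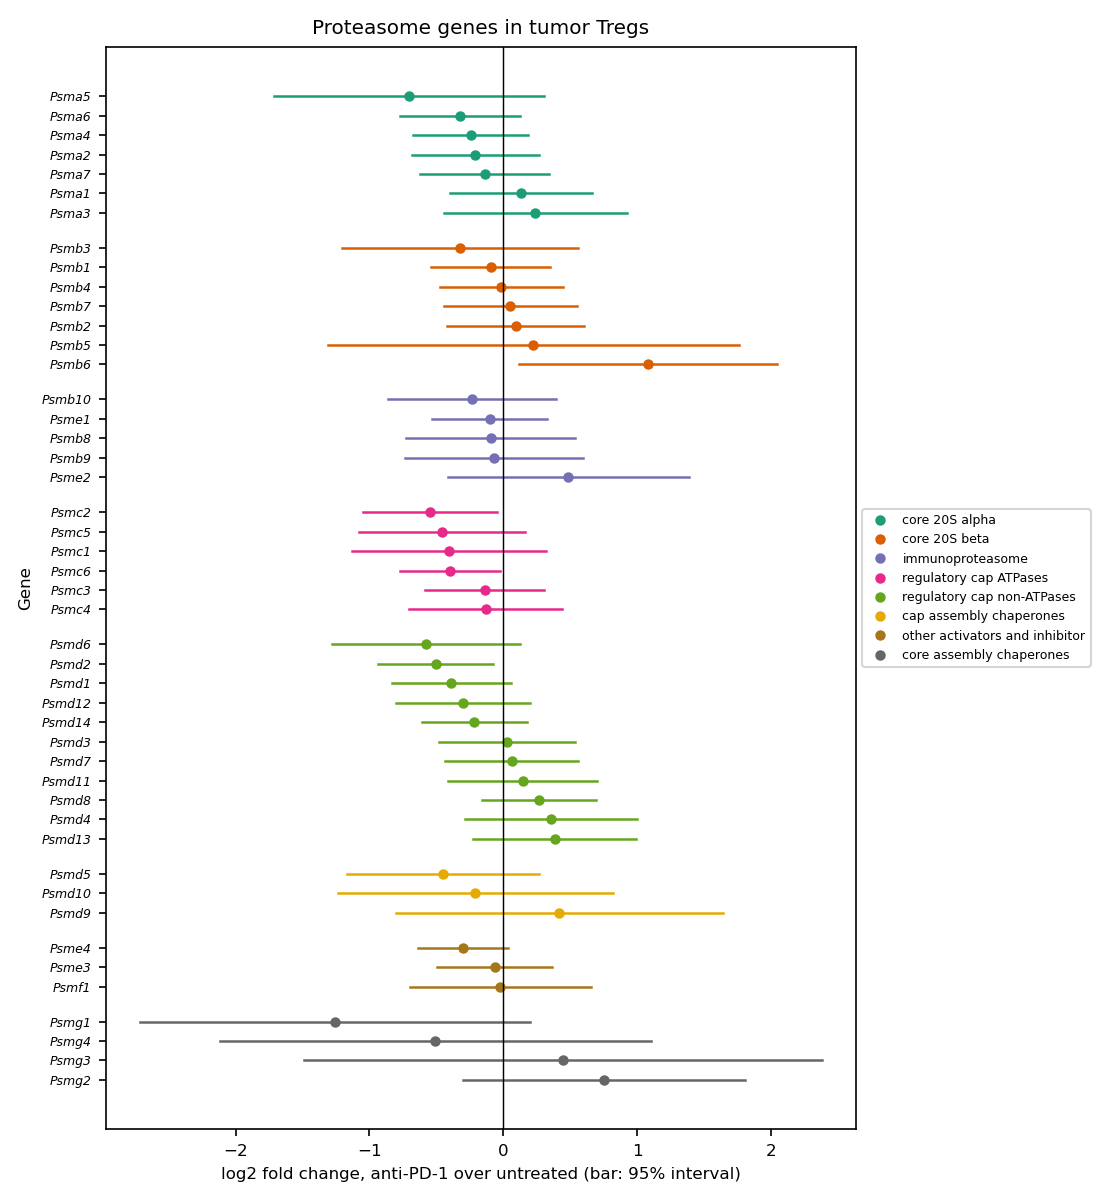
Log2 fold change of each tested proteasome gene, anti-PD-1 over untreated, from the edgeR fit over all genes (x axis; points are estimates, bars 95% intervals, rows are genes grouped and colored by class). All 6 cap ATPases lie left of 0, the intervals of Psmb6, Psmd2, Psmc2 and Psmc6 leave out 0 before adjustment, and Psmg3 has the widest bar.

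Immunoproteasome genes were expressed in every library, and none passed the test between the groups. Psmb8, the chymotrypsin-like immunoproteasome subunit (mm10 chromosome 17, 34198195 to 34201454, plus strand), stood at 42.5, 131 and 113 CPM in untreated libraries 1, 2 and 3 and at 88.0, 81.3 and 97.9 CPM in libraries 4, 5 and 6 of the anti-PD-1 group. Untreated library 1 was thus the lowest of the 6 and untreated library 2 the highest, with the treated libraries between them. The log2 fold change was -0.09 ± 0.30 (SE; 95% interval -0.73 to 0.54; edgeR adjusted p = 0.959).

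Psmb9, which takes the place of Psmb6, lies 10865 bases from Psmb8, start to start, in the class II region of the MHC (chromosome 17, 34182099 to 34187330, minus strand). It stood at 16.5, 49.6 and 52.9 CPM untreated and at 33.8, 40.0 and 38.8 CPM after anti-PD-1. The pattern was that of Psmb8, with untreated library 1 below all others and untreated libraries 2 and 3 above all others (log2 fold change -0.07 ± 0.32 SE, 95% interval -0.73 to 0.59). Psmb10, the trypsin-like counterpart on chromosome 8, varied less, at 23.6, 31.9 and 28.4 CPM untreated and 20.9, 22.2 and 28.1 CPM after anti-PD-1. Here anti-PD-1 library 4 was the lowest, and the groups overlapped (log2 fold change -0.23 ± 0.30, 95% interval -0.86 to 0.39).

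The activator gene Psme1 was the most abundant proteasome gene per length, at 137 ± 30.1 CPM per kilobase (SD, n = 6). Its levels were 88.6, 157 and 171 CPM untreated and 116, 131 and 140.2 CPM after anti-PD-1, again with untreated library 1 lowest and the other untreated libraries highest (log2 fold change -0.10 ± 0.21). Its partner Psme2 stood at 4.33, 14.5 and 17.8 CPM untreated and 19.8, 14.9 and 15.7 CPM after anti-PD-1, the only immunoproteasome gene with a value above 0 (log2 fold change 0.49 ± 0.44, 95% interval -0.42 to 1.39). Untreated library 1 was lowest here too. Of the 50-base stretches of the Psme2 transcript, 59.3% also occur in a gene elsewhere, most of them in Psme2b, so the count of Psme2 is uncertain.

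Untreated library 1 set the spread of this class. It was the lowest of 6 libraries for 4 of the 5 immunoproteasome genes, all but Psmb10, while it was lowest for 27.2% and highest for 26.0% of all genes tested. Taking each gene's log2 level relative to its mean over the 6 libraries, the class median was -1.04 in untreated library 1, 0.32 and 0.38 in untreated libraries 2 and 3, and -0.10, -0.000107 and 0.14 in anti-PD-1 libraries 4, 5 and 6. No other class had a library as far from its mean, but the core assembly chaperones came close, at -0.943 in anti-PD-1 library 5. Over all genes tested, that median lay between 0.00532 and 0.0546 in the 6 libraries. Tap1, which shares its promoter region with Psmb9, was also lowest there, at 115 CPM beside 198 and 206 CPM in untreated libraries 2 and 3 and 166 to 192 CPM after anti-PD-1, as were its partner Tap2 (53.4 CPM, others 84.5 to 94.99 CPM) and Nlrc5, the transactivator of MHC class I genes (112 CPM, others 171 to 266 CPM). Irf1, an interferon-induced activator of these genes, was at 332 CPM there and at 351 to 408 CPM in the others. The marker sums of untreated library 1 were 16.7 CPM for macrophages and monocytes, 3.21 CPM for B cells, 17.01 CPM for CD8 T and NK cells, 16.2 CPM for dendritic cells, 140.2 CPM for tumor and stroma and 7240 CPM for Tregs. They were the lowest of the 6 libraries for B cells and for CD8 T and NK cells. They were the highest of the 6 for Tregs and for dendritic cells, the latter being the level of Zbtb46 alone, and the highest of the untreated libraries for tumor and stroma. The part of other cells in these low values was not tested.

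Without untreated library 1, every anti-PD-1 library lay below both remaining untreated libraries for 4 of the 5 immunoproteasome genes, all but Psme2. This held for 11.4% of all genes. The library left out was itself the lowest for all of these 5 genes but Psmb10, so its removal favors this outcome for them. It was lowest for only 27.2% of all genes, so the shares are not alike and no conclusion is drawn from them. The log2 fold changes became -0.46 for Psmb8, -0.45 for Psmb9, -0.35 for Psmb10, -0.35 for Psme1 and 0.06 for Psme2, a class median of -0.349. None passed in edgeR, with an adjusted p of 0.527 for Psmb8, 0.668 for Psmb9, 0.840 for Psmb10, 0.612 for Psme1 and 0.987 for Psme2. The median turned above 0 without untreated library 2 (0.127), without untreated library 3 (0.0712) and with limma-voom on all libraries (0.0648). The direction of the class therefore depended on which untreated libraries were kept and on the tool.

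**Figure D2:**
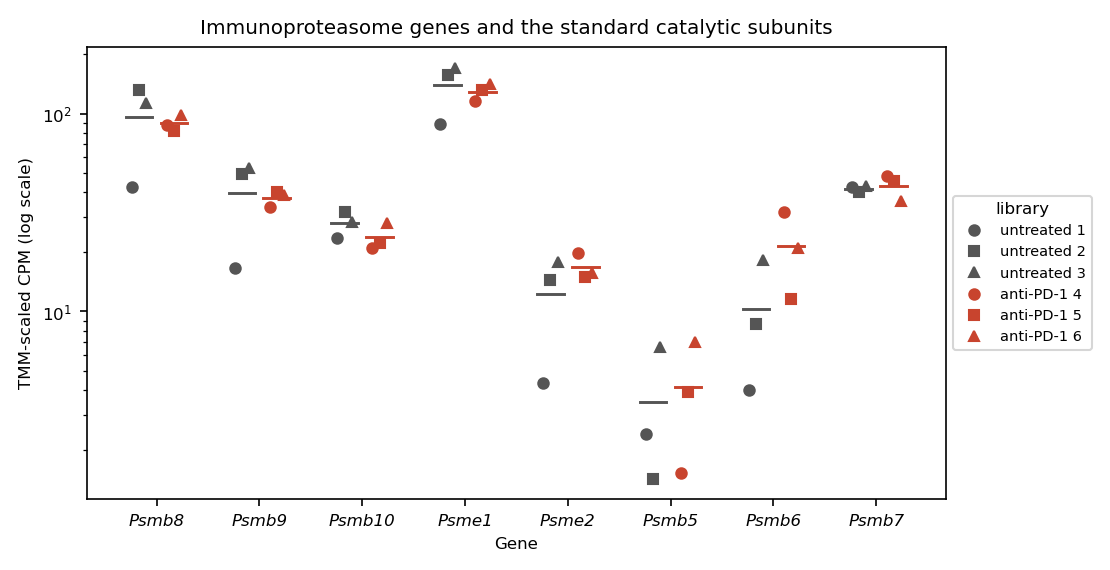
Level of the 5 immunoproteasome genes and the 3 standard catalytic subunits in each library (y axis: TMM-scaled CPM, log scale; each symbol is 1 library, bars are group means, gray untreated and red anti-PD-1). Untreated library 1 (gray circle) is the lowest point for Psmb8, Psmb9, Psme1 and Psme2 and also for the standard subunit Psmb6 (4.01 CPM, others 8.60 to 31.9 CPM), and Psmb7 lies between 36.1 and 48.3 CPM in all libraries.

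**Figure D3:**
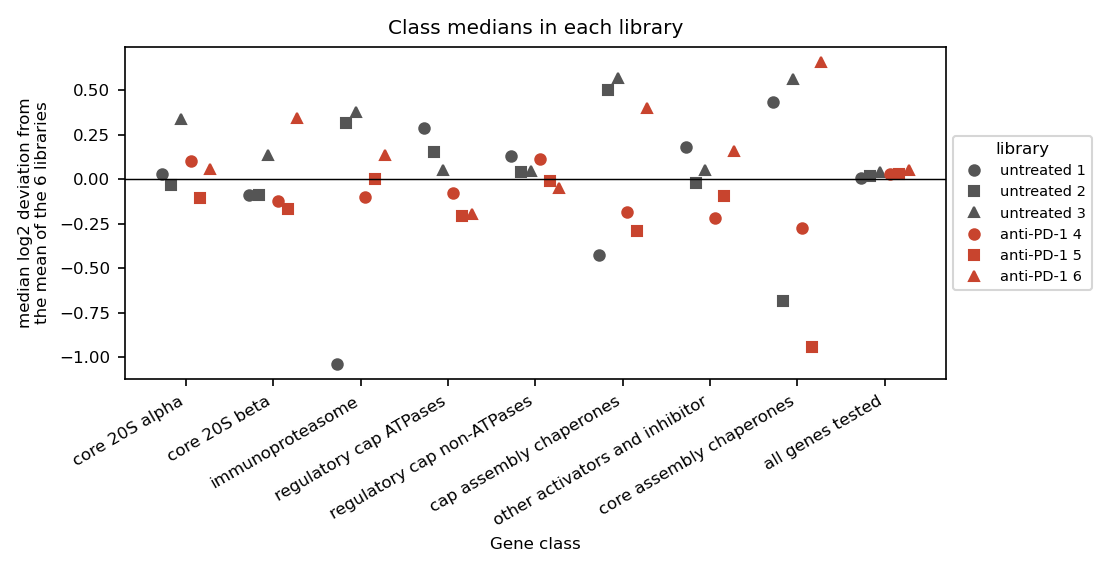
Median over each class of the log2 level relative to the gene's mean over 6 libraries (y axis), by class (x axis) and library (symbols; gray untreated, red anti-PD-1; last column all genes tested). Untreated library 1 is at -1.04 for the immunoproteasome, and the 3 anti-PD-1 libraries lie below the 3 untreated libraries for cap ATPases.

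The standard catalytic subunits were compared with the immunoproteasome subunits that replace them. Psmb7, the trypsin-like subunit, was steady at 42.5, 39.9 and 42.9 CPM untreated and 48.3, 45.4 and 36.1 CPM after anti-PD-1 (log2 fold change 0.05 ± 0.24). Psmb6, the caspase-like subunit (mm10 chromosome 11, 70525357 to 70527858, plus strand), stood at 4.01, 8.60 and 18.3 CPM untreated and at 31.9, 11.6 and 20.9 CPM after anti-PD-1. Untreated library 1 was the lowest here as well, and the groups overlapped, since anti-PD-1 library 5 lay below untreated library 3. Its group means were 10.3 ± 7.27 and 21.5 ± 10.2 CPM (SD, n = 3 per group), a log2 fold change of 1.08 ± 0.47 that did not pass (edgeR unadjusted p = 0.029, adjusted p = 0.551). The fold change was 0.68 and 1.80 without untreated libraries 1 and 3, and 0.67 when anti-PD-1 library 4 was left out.

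Psmb5, the chymotrypsin-like subunit, had 8 to 39 counts per library, or 2.41, 1.43 and 6.59 CPM untreated and 1.52, 3.94 and 7.02 CPM after anti-PD-1. Its interval was correspondingly wide (log2 fold change 0.23 ± 0.74, 95% interval -1.31 to 1.76). Of its transcript, 50% of 50-base stretches occur in a gene elsewhere, most of them in Gm3375, and its exons overlap those of Mir686 on the same strand over 109 bases. The count of Psmb5 is therefore uncertain, and ratios to it share that uncertainty.

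Per kilobase of exon, Psmb8 was 12.6, 65.3 and 12.2 times Psmb5 in untreated libraries and 41.2, 14.7 and 9.93 times Psmb5 in anti-PD-1 libraries. The ratios of the groups overlapped. Psmb9 was 5.30, 7.42 and 3.73 times Psmb6 untreated and 1.36, 4.43 and 2.39 times after anti-PD-1. This is a difference of -1.11 in the mean log2 ratio, with anti-PD-1 library 5 above untreated library 3, and it ran from -1.546 without anti-PD-1 library 5 to -0.695 without anti-PD-1 library 4. Psmb10 was 0.423, 0.609 and 0.505 times Psmb7 untreated and 0.330, 0.373 and 0.593 times after anti-PD-1. For this trypsin-like pair alone, the standard subunit was the more abundant in every library. Summed over the 6 catalytic genes per kilobase, the immunoproteasome genes made up 59.4%, 79.1% and 72.2% of the total in untreated libraries (70.2% ± 10.0, SD, n = 3) and 61.3%, 68.1% and 69.7% in anti-PD-1 libraries (66.3% ± 4.45). The groups overlapped. The total includes Psmb5, so its uncertain count bears on these shares too. With 3 libraries against 3, an exact two-sided permutation test cannot go below p = 0.1, and none was run on these ratios.

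Detected core genes without a catalytic site were expressed at 7.82 to 74.2 CPM per kilobase. Psma6, a subunit of the alpha ring, was the highest of the core (74.2 ± 16.1 CPM per kilobase, SD, n = 6) and stood at 88.7, 63.0 and 94.98 CPM untreated and 77.9, 53.3 and 65.7 CPM after anti-PD-1 (log2 fold change -0.33 ± 0.22, edgeR adjusted p = 0.731). It was -0.21 without untreated library 3 and -0.20 without anti-PD-1 library 5. Psma5 was the lowest alpha subunit expressed. It stood at 10.9, 7.70 and 16.7 CPM untreated and 6.46, 6.01 and 9.29 CPM after anti-PD-1 (log2 fold change -0.71 ± 0.49, but -0.38 without untreated library 3). Psma4, another alpha subunit, was at 61.9, 65.5 and 70.8 CPM untreated and 56.6, 56.4 and 54.3 CPM after anti-PD-1. It was the only core gene whose groups did not overlap, by a small amount (log2 fold change -0.24 ± 0.21, 95% interval -0.67 to 0.19).

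In the beta rings, Psmb1 was the highest subunit (70.4 ± 12.3 CPM per kilobase), at 67.7, 78.8 and 79.3 CPM untreated and 64.8, 55.6 and 91.3 CPM after anti-PD-1, with overlapping groups (log2 fold change -0.09 ± 0.22). Psmb3, a structural subunit, was at 10.9, 18.8 and 14.2 CPM untreated and 8.17, 9.54 and 17.3 CPM after anti-PD-1 (log2 fold change -0.32 ± 0.43). The core genes Psma1, Psma2, Psma3, Psma7, Psmb2 and Psmb4 had log2 fold changes from -0.21 to 0.24, none with groups apart. The alpha median was -0.106 without untreated library 3. The median of the 14 core genes tested was -0.05, and it was -0.154 without untreated library 1, and leaving out anti-PD-1 library 5 or 6 gave 0.00712 or -0.215.

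Alpha and beta subunits enter each core in equal numbers. Levels per kilobase of their genes differed widely. Of the 19 core and immunoproteasome genes detected, the 7 lowest were Psmb5 (4.38 CPM per kilobase), Psma5 (7.82), Psma3 (14.1), Psme2 (14.8), Psmb6 (15.3), Psmb3 (18) and Psmb10 (20.3), and the next was Psmb7 at 43.9. The 4 genes with at least 50% of their 50-base stretches found in a gene elsewhere, Psme2 (59.3%), Psmb3 (55.8%), Psma5 (54.5%) and Psmb5 (50%), were all among the 6 lowest. The SDs over libraries of Psma3, Psme2, Psmb6 and Psmb3 overlapped, so their order is not settled. Across the 19 genes, Spearman's rho between level and shared share was -0.473, a description over genes measured in the same 6 libraries, which are not independent replicates. Psmb6 (2.67%) and Psmb10 (0%) were low with little or nothing shared, and Psma4 (25.6%) was not low. The part of shared sequence in these levels was not tested. Of all 48 genes, 29 had no such stretch and 10 had it over at least 10% of the transcript, among them Psmd2 (26.4%), Psmd11 (18.9%), Psmc1 (17.6%) and Psme1 (14.1%), whose counts are uncertain to that extent. The stretches were compared with GENCODE M21 transcripts of genes at other positions.

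**Figure D4:**
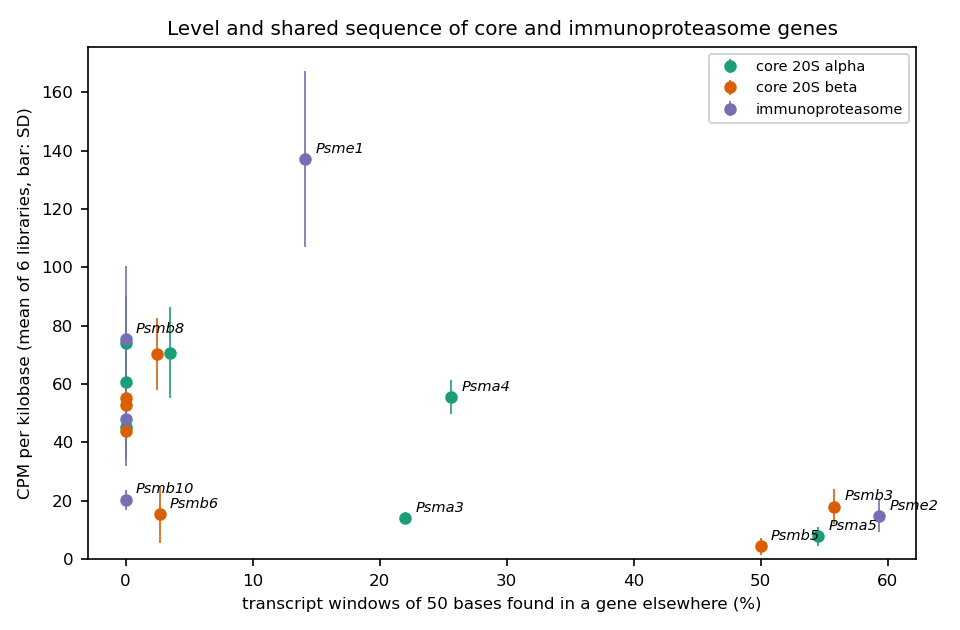
Mean level over 6 libraries (y axis, CPM per kilobase, bars SD) of the 19 detected core and immunoproteasome genes against the share of 50-base transcript stretches that occur in a gene elsewhere (x axis, percent), colored by class. Psmb5, Psma5, Psmb3 and Psme2, at 50% to 59.3% shared, lie between 4.38 and 18 CPM per kilobase.

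The regulatory cap held the lower values with the smallest p among proteasome genes. Psmc6, an ATPase of the ring that unfolds substrates (mm10 chromosome 14, 45329824 to 45349071, plus strand), stood at 151, 119.8 and 117 CPM untreated and at 107, 95.4 and 91.9 CPM after anti-PD-1. Every treated library lay below every untreated library. The group means were 129 ± 19.0 and 98.0 ± 7.78 CPM (SD, n = 3 per group), and the log2 fold change was -0.40 ± 0.18 (edgeR unadjusted p = 0.0392, adjusted p = 0.572). Psmc2, another of the 6 ATPases (chromosome 5, 21785283 to 21803784, plus strand), stood at 73.6, 75.6 and 47.8 CPM untreated and at 51.5, 35.7 and 47.1 CPM after anti-PD-1. Untreated library 3 lay within the treated range, so the groups overlapped. The means were 65.7 ± 15.5 and 44.7 ± 8.16 CPM, a log2 fold change of -0.55 ± 0.24 (edgeR unadjusted p = 0.0325, adjusted p = 0.560).

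The 4 other ATPases also had values below 0. Psmc5 stood at 38.7, 34.2 and 24.2 CPM untreated and 25.8, 24.7 and 20.2 CPM after anti-PD-1 (log2 fold change -0.45 ± 0.30, but -0.30 without untreated library 1). Psmc1, the lowest of the ring per length (12.2 ± 2.499 CPM per kilobase), stood at 19.9, 17.2 and 25.0 CPM untreated and at 15.8, 15.8 and 15.5 CPM after anti-PD-1, with groups apart (log2 fold change -0.40 ± 0.35, but -0.25 without untreated library 3). Psmc3 was the steadiest, at 58.6, 57.5 and 56.6 CPM untreated and 50.3, 52.1 and 54.5 CPM after anti-PD-1. Its groups did not overlap although its log2 fold change was only -0.14 ± 0.21. Psmc4 overlapped between the groups (log2 fold change -0.13 ± 0.28). The ATPases thus had groups apart in 3 of 6 genes, beside 6.44% of all genes in this direction. Their class median of the log2 level relative to each gene's mean was 0.29, 0.15 and 0.05 in untreated libraries 1, 2 and 3 and -0.07, -0.21 and -0.19 in anti-PD-1 libraries 4, 5 and 6. It lay below 0 in the comparison under all 15 alternatives run, from -0.438 to -0.295. The core alpha median also lay below 0 under all 15, from -0.274 to -0.106. All alternatives draw on the same 6 libraries, so they are not independent of one another.

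**Figure D5:**
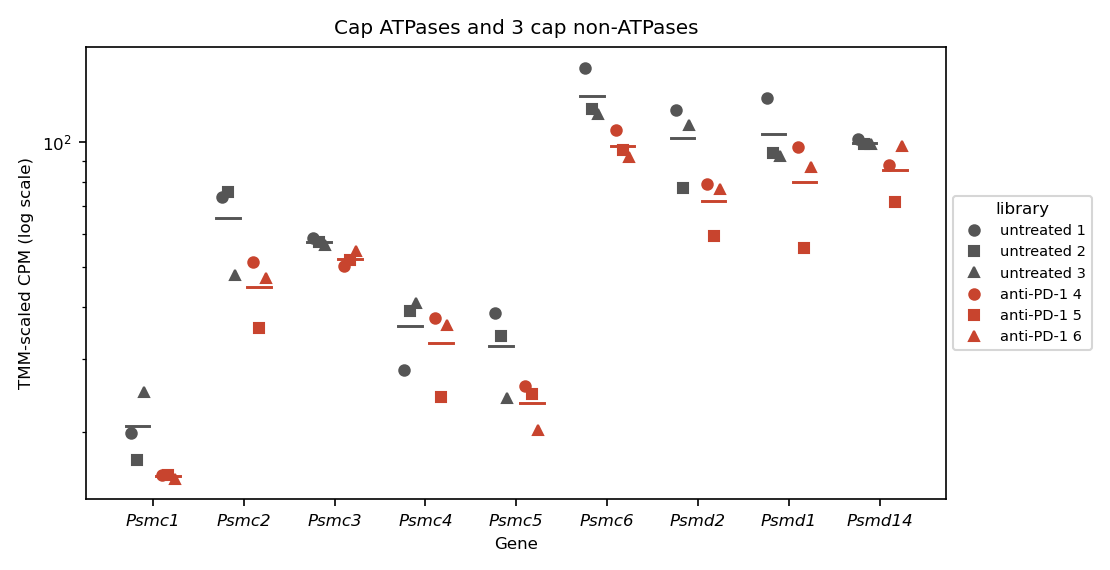
Level of the 6 cap ATPases and of the non-ATPases Psmd2, Psmd1 and Psmd14 in each library (y axis: TMM-scaled CPM, log scale; each symbol is 1 library, bars are group means, gray untreated and red anti-PD-1). For Psmc1, Psmc3, Psmc6 and Psmd14 no red symbol reaches the lowest gray symbol, while the groups overlap for the others.

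Among cap non-ATPases, Psmd2 had the smallest p of all proteasome genes. Its product is the cap subunit on which shuttle proteins and the deubiquitinase Usp14 dock (mm10 chromosome 16, 20651652 to 20663414, plus strand). Psmd2 stood at 119, 77.5 and 109.5 CPM untreated and at 79.4, 59.5 and 77.0 CPM after anti-PD-1. Only anti-PD-1 library 4 lay above an untreated library, number 2. The means were 102 ± 21.7 and 72.0 ± 10.9 CPM, a log2 fold change of -0.51 ± 0.21 (edgeR unadjusted p = 0.0235, adjusted p = 0.551, 0.385 to 0.940 over the alternatives). Psmd1, the large scaffold subunit beside it, stood at 127, 94.2 and 92.6 CPM untreated and 97.3, 55.6 and 86.9 CPM after anti-PD-1, with overlap (log2 fold change -0.39 ± 0.21, but -0.22 without untreated library 1 and -0.19 without anti-PD-1 library 5). Psmd6, a subunit of the lid, stood at 48.1, 28.1 and 25.4 CPM untreated and 13.1, 30.9 and 25.2 CPM after anti-PD-1, also with overlap (log2 fold change -0.58 ± 0.34, but -0.23 without untreated library 1 and -0.28 without anti-PD-1 library 4).

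Psmd14, the deubiquitinase that removes ubiquitin chains as a substrate enters, was the highest non-ATPase (60.1 ± 7.36 CPM per kilobase). It stood at 101, 98.7 and 98.9 CPM untreated and 88.0, 71.6 and 97.7 CPM after anti-PD-1. The groups were apart only narrowly, by anti-PD-1 library 6 (log2 fold change -0.22 ± 0.19). Psmd3, the lowest per length (18.5 ± 1.497 CPM per kilobase), was at 37.9, 41.4 and 39.0 CPM untreated and 42.6, 43.1 and 34.7 CPM after anti-PD-1 (log2 fold change 0.03 ± 0.25). Psmd12, below 0, and Psmd7, Psmd8, Psmd11, Psmd13 and the ubiquitin receptor Psmd4, above 0, had log2 fold changes from -0.30 to 0.38, none with groups apart. The 11 non-ATPases were therefore split, with 6 above 0 and 5 below.

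The other activators and the inhibitor all lay below 0. Psme4, an ATP-independent activator found in the nucleus, had the longest exon sequence of all proteasome genes and stood at 275, 212 and 219 CPM untreated and at 207, 198 and 168 CPM after anti-PD-1, with groups apart (log2 fold change -0.30 ± 0.16, edgeR unadjusted p = 0.077). It was -0.17 without untreated library 1. Psme3, the nuclear relative of Psme1 and Psme2, was at 64.3, 64.3 and 72.2 CPM untreated and 56.0, 63.7 and 72.9 CPM after anti-PD-1 (log2 fold change -0.06 ± 0.21). Its values thus did not share the low point of its relatives in untreated library 1. Psmf1, an inhibitor that binds the core, was the lowest of the 3 per length (6.12 ± 0.997 CPM per kilobase) and stood at 24.4, 20.1 and 21.0 CPM untreated and 18.4, 18.9 and 27.5 CPM after anti-PD-1 (log2 fold change -0.02 ± 0.33).

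Core assembly chaperones had few counts, 71 to 302 in all 6 libraries together, and a wide spread between libraries. Psmg1, which with Psmg2 starts the alpha ring, stood at 15.2, 2.51 and 6.76 CPM untreated and 2.85, 1.04 and 6.61 CPM after anti-PD-1. Its log2 fold change was -1.26 ± 0.70 and rested on untreated library 1, without which it was -0.43. Psmg2, the highest of the 4 per length (8.94 ± 4.47 CPM per kilobase), stood at 8.02, 2.87 and 9.97 CPM untreated and 7.60, 17.2 and 11.2 CPM after anti-PD-1, so the partners had opposite signs (log2 fold change 0.75 ± 0.51). The other two form a second pair. Psmg4 was at 4.97, 1.61 and 3.55 CPM untreated and 1.90, 1.24 and 4.13 CPM after anti-PD-1 (log2 fold change -0.51 ± 0.78). Psmg3 had from 0 counts in untreated library 1 to 19 in untreated library 2 and anti-PD-1 library 6 (log2 fold change 0.45 ± 0.94). The 95% intervals of these 4 genes all spanned more than 2 log2 units.

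The chaperones of the cap ATPase ring were mixed as well. Psmd5 stood at 21.0, 27.2 and 33.0 CPM untreated and 17.9, 12.0 and 29.3 CPM after anti-PD-1 (log2 fold change -0.45 ± 0.35). Psmd10, also known as gankyrin, stood at 4.17, 14.1 and 14.9 CPM untreated and 11.6, 7.67 and 8.88 CPM after anti-PD-1 (log2 fold change -0.21 ± 0.50). Psmd9 was the lowest, at 4.01, 7.70 and 3.04 CPM untreated and 4.75, 7.26 and 7.64 CPM after anti-PD-1 (log2 fold change 0.42 ± 0.59). The groups overlapped for all 3.

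Genes that work with the proteasome were counted in 4 lists, and none of the 41 genes tested passed in edgeR, beside 0.029% of all genes. At an unadjusted p under 0.05 in edgeR stood 2 of the 41, both with lower values, beside 4.07% of all genes in this direction. Groups apart, as given below for single genes of these lists, occurred in 6.44% of all genes with lower values and 7.18% with higher values. Of 11 proteasome-associated proteins outside the name rule, 3 lay above and 8 below 0, with a median log2 fold change of -0.14. Usp14, the deubiquitinase docked on Psmd2, stood at 55.7, 61.1 and 57.6 CPM untreated and at 29.8, 41.9 and 44.0 CPM after anti-PD-1. Every treated library lay below every untreated library (log2 fold change -0.60 ± 0.24, edgeR unadjusted p = 0.019, adjusted p = 0.533). Txnl1, a thioredoxin-like protein bound to the cap, was likewise apart, at 74.0, 66.4 and 72.5 CPM untreated and 39.1, 57.2 and 56.8 CPM after anti-PD-1 (log2 fold change -0.48 ± 0.22, edgeR unadjusted p = 0.0385). Pomp, which assembles the beta rings, had a log2 fold change of -0.18 ± 0.27.

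Of 10 regulators of proteasome transcription, 8 lay above 0 and 2 below, with a median of 0.10. Nlrc5 had a log2 fold change of 0.29 ± 0.21, and the activators of standard proteasome genes Nfe2l1 and Nfe2l2 were at 0.16 ± 0.25 and 0.36 ± 0.26. Of 10 ubiquitin receptors and unfolding factors, 5 lay on each side of 0 (median -0.04), with the smallest p for a shuttle protein, Ubqln2. It stood at 92.1, 84.7 and 90.4 CPM untreated and at 117, 103 and 106 CPM after anti-PD-1, every treated library above every untreated one (log2 fold change 0.29 ± 0.18). Of 10 genes for peptide handling after the proteasome, 4 lay above and 6 below 0 (median -0.22). Lap3, an aminopeptidase, stood at 25.0, 7.16 and 8.96 CPM untreated and 6.08, 4.56 and 10.3 CPM after anti-PD-1 (log2 fold change -1.002 ± 0.54), and untreated library 1 was its highest, opposite to the immunoproteasome genes. Tpp2, the giant peptidase downstream of the proteasome, stood at 751, 740.2 and 752 CPM untreated and 649, 715 and 548 CPM after anti-PD-1, with groups apart (log2 fold change -0.23 ± 0.14). Tapbp, a loading factor of MHC class I, was the other gene of this list with groups apart, also lower (-0.25 ± 0.16).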

How the data were processed

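RNA from sorted Tregs was measured in 6 libraries, 3 per group. The authors deposited raw fragment counts for each gene, made with featureCounts 1.5.2, stranded, on UCSC mm10 genes, with no option for reads that map to several places, per the file headers. bcl2fastq, FastQC and DESeq2 appear in the submitters' processing notes. How reads were aligned and duplicates handled is not given in the sources used here. A further column without a name (1 column, 6 values) was not used.

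In edgeR 4.0.16 (R 4.3.3), genes passed filterByExpr (a count of 10, 15 in total), which left 10352 genes with 99.8% of counts. Libraries were scaled by TMM, and glmQLFit (robust) with glmQLFTest tested treatment, two-sided, adjusted by Benjamini-Hochberg over all tested genes at 0.05. CPM per kilobase divides by the deposited exon length. Library levels relative to the mean used log2 CPM with 0.5 added to each count before scaling. Intervals are 95%. Totals of 4766533 to 6686774 counts limit precision for genes of few counts. Alternatives were DESeq2 1.42.0, limma-voom 3.58.1 with and without quality weights, 3 other scalings, 2 other filters, each library left out, and, added after seeing the data, edgeR's legacy fit. The main edgeR test was run on simulated counts, and the alternatives were not. No library was a copy of another (chi-square per degree of freedom 9.87 to 32.3).

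The members and lists were chosen with earlier results of these data known. Named were all immunoproteasome and standard catalytic genes, in every other class the 3 genes of smallest p and the highest and lowest per kilobase, every gene at an unadjusted p under 0.05, and 2 genes per pathway list. Further genes were named after their values were seen, and 2 list genes are not reported here. Of the pathway list symbols, 3 matched by synonym and 2 were not found. Promoters came from RefSeq.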

Additional observations from a re-analysis of the deposited data

How the results depend on the processing

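No proteasome gene passed under any of the 15 alternatives, and the smallest adjusted p of any was 0.385 (Psmd2, DESeq2). The number of all genes called higher and lower was 3 and 0 in edgeR, 21 and 13 with DESeq2, and 36 and 16 without a filter. It was 4 and 1 with limma-voom, and 9 and 4 with limma-voom and quality weights. Library totals only gave 6 and 1, and upper-quartile factors 5 and 0. Leaving out 1 library gave 1 to 12 higher and 0 to 7 lower. DESeq2 adjusted over fewer genes (4331), and the causes of these differences in number were not tested. The median log2 fold change of all proteasome genes was -0.214 with quality weights and -0.206 to -0.0441 without 1 library, that of other activators and the inhibitor -0.219 to 0.0279, and that of the core -0.215 to 0.00712. The immunoproteasome median ran from -0.349 to 0.127 without 1 library. Of 46 proteasome genes, 3 to 9 turned sign without 1 library, most without anti-PD-1 library 4, and at most 3 under another tool, scaling or filter. No paired analysis was possible because the groups share no replicate number. Psmb5 and the core chaperones had few counts, and how far depth or the spread between libraries limits their precision was not tested.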

Other observations

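The ratio of the activator genes Psme1 and Psme2 in counts per kilobase was 20.4, 10.9 and 9.62 in untreated libraries 1, 2 and 3 and 5.88, 8.78 and 8.93 in anti-PD-1 libraries 4, 5 and 6, so the groups did not overlap. It was chosen after its values were seen, it was not tested, and 59.3% of the 50-base stretches of Psme2 also occur elsewhere, mostly in Psme2b.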
